A study of Homo sapiens with 9 samples.

Results

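Dual-specificity MAP kinase phosphatases are the enzymes that switch MAP kinases off. They remove phosphate from both the threonine and the tyrosine of the kinase activation loop, and several of their genes are themselves transcribed in response to the kinase they inactivate, so that they act as negative feedback. LNCaP, a human prostate adenocarcinoma line derived from a metastasis, signals to ERK through HER2 and HER3 when neuregulin binds HER3. The study also reported phosphorylation of EGFR in LNCaP given neuregulin. The 8 genes described here (DUSP1, DUSP4, DUSP5, DUSP6, DUSP7, DUSP8, DUSP10 and DUSP16) were taken by symbol from a count table of 37351 genes, and all 8 were among the 19250 genes with enough reads to be tested. By the substrate each enzyme is known for, they were set in 3 classes. DUSP5 (nuclear), DUSP6 and DUSP7 (both cytoplasmic) act on ERK. DUSP1 and DUSP4 are nuclear and act on ERK, JNK and p38. DUSP8, DUSP10 and DUSP16 are directed at the stress kinases JNK and p38.

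The libraries came from LNCaP cells of 1 line without genetic modification. They had been kept without serum and calcium for 6 to 12 h and then given 15 ng/mL recombinant NRG1. Total RNA was taken at the start and after 12 and 24 h, from 3 biological replicates at each time. The 9 libraries held 47016302 to 60985825 counts each. The labels call the replicates biological and describe plating in triplicate, without saying whether replicates came from separate passages, so p-values measure the spread between these samples. Cells left untreated until 12 or 24 h were not analysed here, and the ligand and the time in the medium therefore cannot be told apart in any comparison with 0 h. The 12 h and 24 h comparisons also share the same 0 h libraries. In bulk RNA a change in the number of cells that express a gene and a change in RNA per cell cannot be told apart either.

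The label of the cells was checked against marker lists. All 9 prostate luminal markers were tested, and their summed level was 4634 to 4763 CPM (read counts relative to TMM-scaled library size) before NRG1, 4775 to 4822 after 12 h and 4379 to 4589 after 24 h. Basal epithelial markers summed to at most 0.325 CPM and immune markers to at most 0.624 CPM in any library. Of the fibroblast and muscle markers, 6 of 7 were in the table and summed to 24.4 to 29.2 CPM, nearly all from COL1A1, with COL1A2 at 1 read and ASPN at 4 reads over the 9 libraries. The endothelial list had 2 of 3 genes in the table, PECAM1 held 5 reads in total, and VWF fell, from 13.1 ± 0.475 CPM before NRG1 to 8.82 ± 0.517 after 12 h and 7.39 ± 0.524 after 24 h (SD, n = 3). The part of these markers in the results was not tested.

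At 12 h the ERK-specific phosphatases rose and the JNK/p38-directed ones did not. DUSP6 and DUSP5 rose 19.0-fold and 2.37-fold, and DUSP4 rose 1.84-fold. At 24 h these 3 genes were still 25.5-fold, 2.88-fold and 1.78-fold above 0 h. They were the only members past both thresholds of the study's methods, adjusted p-values up to 0.05 with changes of 1.5-fold or more, at either time (edgeR quasi-likelihood test, Benjamini-Hochberg adjustment over all tested genes). Of all tested genes 2.37% passed both thresholds at 12 h (0.992% higher and 1.38% lower) and 3.31% at 24 h (1.53% higher and 1.78% lower), against 3 of 8 members at each time, all higher. On the adjusted p-value alone 6 of 8 members passed at 12 h, 4 higher and 2 lower, where 18.7% of all genes did (10.6% higher and 8.16% lower). At 24 h 3 of 8 passed, all higher, where 21.1% of all genes did (11.6% higher and 9.48% lower). The 3 libraries at 12 h did not overlap the 3 at 0 h in any of the 8 members, which was so for 32.8% of all tested genes, and at 24 h 5 of 8 members were free of overlap, against 33.5%.

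**Figure D1:**
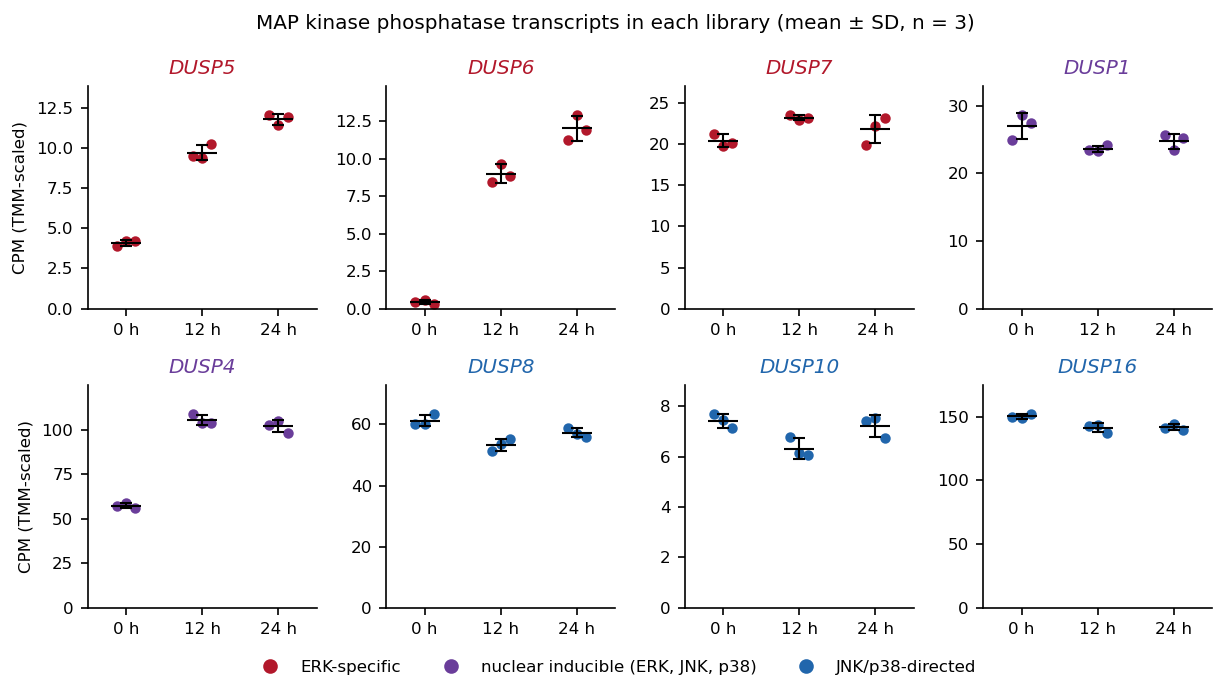
CPM of the 8 MAP kinase phosphatase genes in each of the 9 libraries (points), with the mean and SD of the 3 replicates at each time (bars), on axes that start at 0. DUSP6 goes from a mean of 0.471 to 12.1 CPM and DUSP5 from 4.09 to 11.8 CPM between 0 and 24 h, DUSP4 goes from 57.2 to 105 CPM by 12 h, and the other 5 genes stay within a narrow band.

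DUSP6 encodes MKP-3, a cytoplasmic phosphatase with a strong preference for ERK (ENSG00000139318.8, GRCh38 chromosome 12, 89347235 to 89352501, minus strand). Per exon length it had the lowest level of the 8 genes at 0 h. Its CPM values there were 0.468, 0.604 and 0.343 in the 3 libraries, which rest on 20 to 35 reads each. At 12 h it was at 8.47, 9.69 and 8.88 CPM, and at 24 h at 11.3, 12.9 and 12.0 CPM. Each time point lay wholly above the one before it. The log2 fold change was 4.25 at 12 h (95% confidence interval 3.96 to 4.54, edgeR adjusted p-value 5.83e-23) and 4.67 at 24 h (4.39 to 4.95, adjusted p-value 1.06e-24). These were the 10th and 7th largest rises among 19250 genes. Over the fits without 1 library the 12 h change was lowest without 0 h replicate 3, at 4.07, and highest without 0 h replicate 2, at 4.46. An antisense lncRNA gene (ENSG00000274021.1) shares 1105 exonic bases with DUSP6. It held 0.142 ± 0.130 CPM before NRG1, 0.286 ± 0.104 after 12 h and 0.277 ± 0.116 after 24 h (SD, n = 3), and since no source says that strand was used in counting, reads in those bases are uncertain.

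DUSP5 encodes a nuclear phosphatase specific for ERK, which it also anchors in the nucleus (ENSG00000138166.6, chromosome 10, 110497907 to 110511533, plus strand). The 0 h libraries were at 3.89, 4.21 and 4.18 CPM, the 12 h libraries at 9.51, 9.37 and 10.2 CPM, and the 24 h libraries at 12.0, 11.4 and 11.9 CPM. The 3 times did not overlap. Its log2 fold change was 1.24 at 12 h (95% confidence interval 1.07 to 1.42, edgeR adjusted p-value 1.71e-13) and 1.53 at 24 h (1.35 to 1.70, adjusted p-value 2.25e-16). The replicates of DUSP5 were close, with a coefficient of variation of 2.86% to 4.74% within each time.

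DUSP7, the cytoplasmic ERK phosphatase closest in kind to DUSP6, moved far less (ENSG00000164086.10, chromosome 3, 52048919 to 52056571, minus strand). It was at 21.3, 19.7 and 20.2 CPM at 0 h, at 23.5, 22.9 and 23.2 CPM at 12 h, and at 19.9, 22.2 and 23.2 CPM at 24 h. The 12 h libraries lay above the 0 h libraries, while the 24 h libraries overlapped both. It rose by 0.19 on the log2 scale at 12 h (95% confidence interval 0.068 to 0.30, edgeR adjusted p-value 0.0201). The 24 h change was 0.097 (-0.021 to 0.21, adjusted p-value 0.271). The 12 h call was lost in some fits without a single library, in which the change stayed of similar size. It was 0.16 without 0 h replicate 2, 0.18 without 0 h replicate 3 and 0.18 without 12 h replicate 1. These fits gave edgeR adjusted p-values of 0.0787, 0.0597 and 0.0727.

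The 2 nuclear phosphatases of broad specificity went apart. DUSP4 (MKP-2, ENSG00000120875.9, chromosome 8, 29333064 to 29350684, minus strand) was at 57.3, 58.6 and 55.9 CPM at 0 h, at 109, 103 and 104 CPM at 12 h, and at 103, 105 and 98.1 CPM at 24 h. The 0 h libraries were well below all 6 later ones, and the 12 h and 24 h libraries overlapped. It rose by 0.88 on the log2 scale at 12 h (95% confidence interval 0.80 to 0.95, edgeR adjusted p-value 1.28e-19) and stood 0.83 above 0 h at 24 h (0.76 to 0.91, adjusted p-value 2.83e-19). The change rests on many reads, with 5019 to 5858 counts in the 12 h libraries against 3261 to 3549 in the deeper 0 h libraries.

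DUSP1 (MKP-1, ENSG00000120129.6, chromosome 5, 172768096 to 172771195, minus strand) is the archetypal immediate-early phosphatase, best known for a rapid and short-lived induction by growth factors and stress. It was at 24.99, 28.6 and 27.4 CPM at 0 h, at 23.5, 23.4 and 24.1 CPM at 12 h, and at 25.6, 23.5 and 25.2 CPM at 24 h. The 12 h libraries were all below the 0 h libraries, and the 24 h libraries overlapped both. It fell by 0.19 on the log2 scale at 12 h (95% confidence interval -0.30 to -0.080, edgeR adjusted p-value 0.0112). The call was lost without 0 h replicate 2 (log2 fold change -0.15, adjusted p-value 0.0924), without 12 h replicate 1 (-0.18, 0.0502) and without 12 h replicate 2 (-0.18, 0.0517). At 24 h the change was -0.13 (-0.24 to -0.015, edgeR adjusted p-value 0.105), and leaving out 0 h replicate 1 gave -0.18, which passed (adjusted p-value 0.0224). At 12 and 24 h DUSP1 was thus not above 0 h in these libraries, and times before 12 h were not measured.

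Of the JNK/p38-directed phosphatases, DUSP8 passed the test at 12 h and DUSP10 and DUSP16 did not. DUSP8 (ENSG00000184545.11, chromosome 11, 1554051 to 1572271, minus strand) was at 60.2, 60.1 and 63.3 CPM at 0 h, at 51.3, 53.5 and 55.2 CPM at 12 h, and at 58.8, 57.0 and 55.9 CPM at 24 h. The 12 h libraries were the lowest and the 0 h libraries the highest, without overlap between any of the times. It fell by 0.20 on the log2 scale at 12 h (95% confidence interval -0.28 to -0.12, edgeR adjusted p-value 0.000387), and the 24 h change of -0.098 (-0.18 to -0.016) did not pass (adjusted p-value 0.0839). The antisense gene KRTAP5-AS1 overlaps the span of DUSP8, shares 0 exonic bases with it and held 3.37% as many reads. Its level before NRG1 was 2.27 ± 0.0358 CPM, then 1.53 ± 0.346 after 12 h and 1.96 ± 0.198 after 24 h (SD, n = 3).

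DUSP10 (MKP-5, ENSG00000143507.18, chromosome 1, 221701424 to 221742089, minus strand), which inactivates p38 and JNK, was at 7.68, 7.44 and 7.14 CPM at 0 h, at 6.78, 6.13 and 6.05 CPM at 12 h, and at 7.39, 7.54 and 6.74 CPM at 24 h. The 12 h libraries were below the 0 h libraries and the 24 h libraries overlapped both. Neither change passed, with -0.23 at 12 h (95% confidence interval -0.41 to -0.047, edgeR adjusted p-value 0.0726) and -0.039 at 24 h (-0.22 to 0.14, adjusted p-value 0.822). DUSP16 (MKP-7, ENSG00000111266.9, chromosome 12, 12473282 to 12562863, minus strand), which shuttles between nucleus and cytoplasm and acts on JNK and p38, was the most abundant member per exon length and was at 150, 149 and 152 CPM at 0 h. It was at 143, 144 and 138 CPM at 12 h and at 141, 144 and 139 CPM at 24 h, all below the 0 h libraries. The log2 fold changes were -0.086 at 12 h (-0.15 to -0.019, edgeR adjusted p-value 0.0636) and -0.085 at 24 h (-0.15 to -0.019, adjusted p-value 0.0604). With 6634 to 9295 reads a library the bound on any fall of DUSP16 was tight, at 0.15 on the log2 scale.

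**Figure D2:**
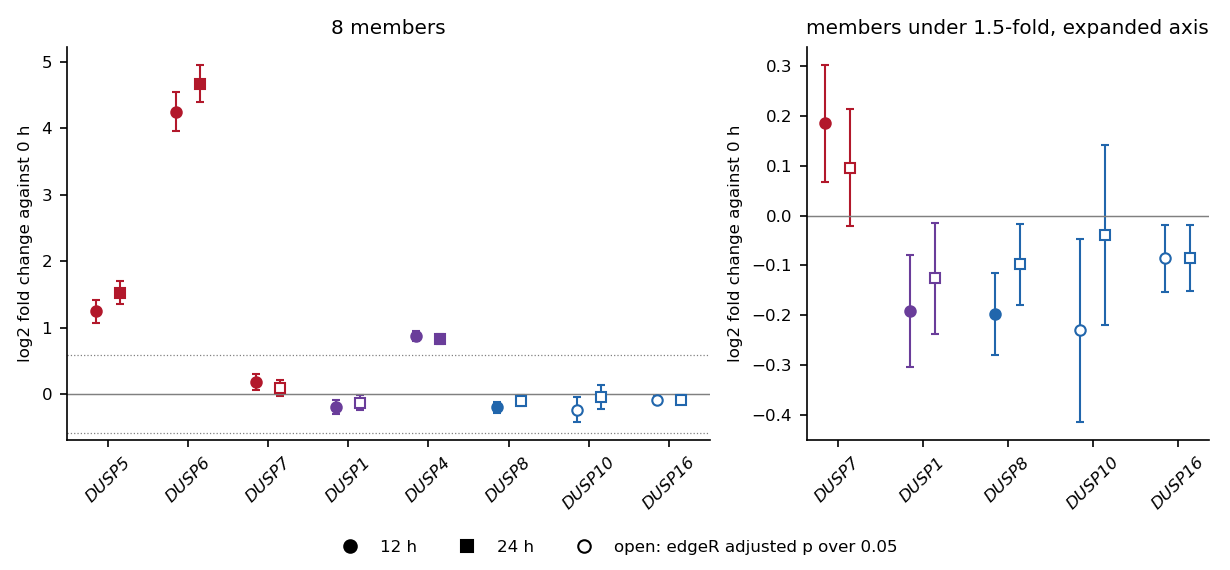
Fitted log2 fold change against 0 h at 12 h (circles) and 24 h (squares) for the 8 genes, with 95% confidence intervals, coloured by class as in the plot of CPM by library. Open symbols did not pass on the edgeR adjusted p-value, and dotted lines mark 1.5-fold. The right panel repeats the 5 members under 1.5-fold on an expanded axis. DUSP6, DUSP5 and DUSP4 lie above the upper dotted line at both times, and the 3 JNK/p38-directed genes lie between -0.23 and -0.039.

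Set side by side, 3 of 3 ERK-specific members were higher at 12 h and 2 of 3 at 24 h by the edgeR adjusted p-value, and 0 of 3 JNK/p38-directed members were at either time, where 10.6% and 11.6% of all genes were higher. The third ERK-specific member at 12 h was DUSP7, whose call was lost when 1 of 3 libraries was left out, as given above. The median log2 fold change was 1.24 for the ERK-specific members and -0.20 for the JNK/p38-directed members at 12 h, and 1.53 and -0.085 at 24 h. Over all 19250 tested genes the median was -0.0084 at 12 h and -0.0068 at 24 h, with quartiles of -0.16 and 0.11 at 12 h. The lowest ERK-specific change, that of DUSP7, lay above the highest JNK/p38-directed change at both times (0.19 against -0.086 at 12 h and 0.097 against -0.039 at 24 h). Since the classes hold 3 genes each and the genes were chosen with earlier results known, this is given as a description.

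To compare the genes with one another, CPM were divided by the length of the union of each gene's exons in kilobases. The union holds all annotated exons, whichever of them the cells express. For DUSP6 it includes the 1105 bases shared with the antisense gene. Ranks between genes and sums and shares of classes are therefore approximate. On this scale the order at 0 h was DUSP16 (21.0 ± 0.230 CPM per kilobase, SD, n = 3), DUSP1 (13.4 ± 0.923), DUSP8 (12.3 ± 0.367), DUSP4 (7.87 ± 0.190), DUSP7 (3.60 ± 0.140), DUSP10 (2.62 ± 0.0950), DUSP5 (1.61 ± 0.0701) and DUSP6 (0.122 ± 0.0339). DUSP1 and DUSP8 overlapped between libraries, and the other neighbours in this order did not. DUSP16 stayed first at every time. DUSP4 moved from rank 4 to rank 2 at 12 h (14.5 ± 0.397) and kept it at 24 h (14.02 ± 0.489). DUSP6 reached 2.34 ± 0.161 CPM per kilobase at 12 h, where it overlapped DUSP10 (2.24 ± 0.142), and 3.12 ± 0.215 at 24 h, above DUSP10 (2.56 ± 0.151) in every library. DUSP5 stood below DUSP7 at 12 h (3.83 ± 0.181 against 4.09 ± 0.0534) and above it at 24 h (4.65 ± 0.133 against 3.84 ± 0.299), without overlap between the libraries at either time.

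Summed per kilobase, the ERK-specific transcripts came to 5.34 ± 0.0631 CPM per kilobase before NRG1, 10.3 ± 0.161 after 12 h and 11.6 ± 0.378 after 24 h (SD, n = 3). The JNK/p38-directed transcripts came to 36.0 ± 0.513, 32.8 ± 0.284 and 33.9 ± 0.663. The broad nuclear pair came to 21.3 ± 1.00, 26.2 ± 0.373 and 26.3 ± 0.462, and all 8 genes to 62.6 ± 0.928, 69.3 ± 0.145 and 71.9 ± 0.696. The ERK-specific share of that sum was 8.52% ± 0.229 at 0 h, 14.8% ± 0.259 at 12 h and 16.2% ± 0.645 at 24 h, and the JNK/p38-directed share was 57.5% ± 1.03, 47.4% ± 0.436 and 47.2% ± 0.475. The 0 h libraries did not overlap the later ones in either share. The JNK/p38-directed class had the highest sum of the 3 classes at every time, and the ratio of ERK-specific to JNK/p38-directed transcript went from 0.148 ± 0.00300 to 0.312 ± 0.00657 and 0.343 ± 0.0162. Within the ERK-specific class DUSP6 made up 2.29% ± 0.640 of the sum at 0 h, 22.8% ± 1.499 at 12 h and 26.9% ± 1.37 at 24 h.

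**Figure D3:**
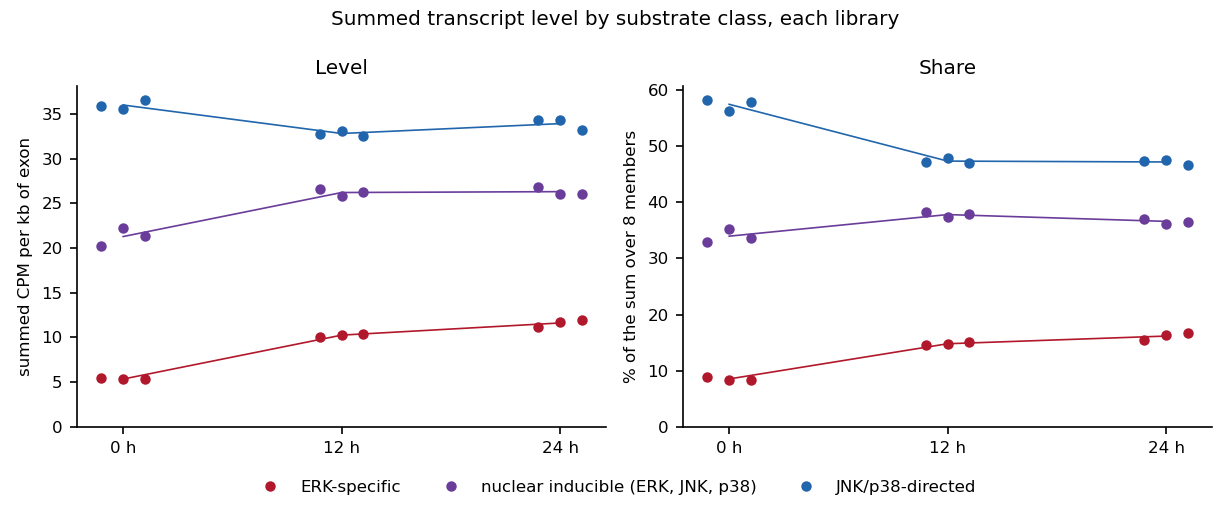
CPM per kilobase of exon summed over the members of each class (left) and the share of each class in the sum over the 8 genes (right), for each library (points) with lines through the means of 3 replicates. The ERK-specific sum goes from 5.34 to 11.6 between 0 and 24 h while its share goes from 8.52% to 16.2%, and the JNK/p38-directed share goes from 57.5% to 47.2%.

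Between 12 and 24 h, 0 of 8 members passed both thresholds, where 0.452% of all tested genes did (0.249% higher and 0.203% lower). DESeq2 also gave 0. An unadjusted edgeR p-value under 0.05 was found for 4 members, but the share of all tested genes under it was not computed. On the edgeR adjusted p-value alone 2 of 8 members passed, against 6.08% of all genes (3.03% higher and 3.05% lower), and both were higher and ERK-specific. The libraries of the 2 times did not overlap in 3 of 8 members (DUSP5, DUSP6 and DUSP8), against 24.4% of all genes. DUSP6 was 0.42 higher on the log2 scale at 24 h than at 12 h (95% confidence interval 0.24 to 0.61, edgeR adjusted p-value 0.00268), and DUSP5 was 0.28 higher (0.12 to 0.44, adjusted p-value 0.0252). The call of DUSP5 was lost when any of 4 libraries was left out. The difference was then 0.27 without replicate 1 of 12 h, 0.26 without its replicate 2, and 0.27 both without replicate 1 and without replicate 3 of 24 h, with edgeR adjusted p-values of 0.0844 to 0.125. DUSP4 had no further change that passed (-0.046, 95% confidence interval -0.12 to 0.028, edgeR adjusted p-value 0.553). DUSP8 and DUSP10 were nearer to their 0 h level at 24 h than at 12 h, but the differences of 0.10 (0.017 to 0.18) and 0.19 (0.0048 to 0.38) did not pass, with edgeR adjusted p-values of 0.155 and 0.249. DUSP16 differed by 0.00064 between the times (-0.066 to 0.067).

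The genes whose pair of changes at 12 and 24 h lay nearest to that of each induced member were sought among 14011 tested genes whose average log2 CPM was not below 0, by the distance between the pairs of log2 fold changes over the 3 times and 9 libraries. For DUSP6 they were FOS (4.34 and 4.62, distance 0.10), ETV5 (4.78 and 5.18, distance 0.74) and EGR1 (5.02 and 5.07, distance 0.86). FOS, ETV5 and EGR1 encode transcription factors induced by ERK signalling. DUSP6 had the 10th largest rise at 12 h and the 7th at 24 h, so few genes could lie near it. A shared cause was not tested. For DUSP5 they were DNAH8 (1.21 and 1.53), a dynein heavy chain, the lncRNA LINC01341 (1.24 and 1.56) and RIPOR2 (1.31 and 1.51), at distances of 0.031, 0.031 and 0.063. For DUSP4 they were OSGIN1 (0.84 and 0.84), KIF28P (0.84 and 0.86) and NLRC5 (0.89 and 0.78), at distances of 0.038, 0.043 and 0.056. KIF28P and NLRC5 had few reads, with an average log2 CPM of 0.20 and 0.25, and lost calls in some fits without a single library. KIF28P lost the edgeR call at 12 h without 0 h replicates 2 or 3 or 12 h replicate 1 (0.65, 0.72 and 0.65) and at 24 h without 0 h replicates 2 or 3 or 24 h replicate 3 (0.66, 0.73 and 0.69). NLRC5 kept the call at 12 h in every alternative. At 24 h NLRC5 lost it without replicate 3 of 0 h (0.72) and without replicates 1 or 2 of 24 h (0.70 and 0.69). All these genes share the 0 h libraries with the members.

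RefSeq promoters (GRCh38.p14) were given for 6 of the 8 members, with 7 start sites, and DUSP4 and DUSP5 had no entry. In the 250 bases before each start, both strands were searched for the ETS motif CCGGAAGT and its core CCGGAA, the AP-1 motif TGANTCA, the cAMP response element TGACGTCA and its first 5 letters TGACG, the EGR motif GCGNGGGCG and the CArG box of serum response factor. Of 35116 promoter windows of this length 1.65% held TGACGTCA. Among the members it was in DUSP1 and DUSP8. It was not in the windows of DUSP6, DUSP7, DUSP10 and DUSP16. Whether a match goes with a change in transcript level was not tested. The DUSP1 window held it once, at 125 to 118 bases before the start, with 2 further copies of TGACG, a run that 21.2% of all windows held. The DUSP8 window held it at 118 to 111 and at 74 to 67 bases before the start. The EGR motif was in the DUSP16 window, at 111 to 103 bases before the start, and in 8.41% of all windows. No match to any of these letters was in the DUSP6, DUSP7 or DUSP10 windows. The share of all windows with a match was 3.42% for CCGGAAGT, 14.5% for CCGGAA, 6.57% for TGANTCA and 1.16% for the CArG box. The window of DUSP6, the member with the largest change, and the windows of DUSP1 and DUSP8, which hold the cAMP response element, are printed here on the strand of the gene, with matches in capitals. A match is a run of letters and was not tested as a binding site.
DUSP6, chr12:89352502-89352751, minus strand: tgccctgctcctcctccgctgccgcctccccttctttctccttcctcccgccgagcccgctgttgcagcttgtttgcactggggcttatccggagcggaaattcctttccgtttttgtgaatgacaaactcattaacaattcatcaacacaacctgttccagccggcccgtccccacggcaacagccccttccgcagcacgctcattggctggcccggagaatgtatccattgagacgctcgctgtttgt
DUSP1, chr5:172771196-172771445, minus strand: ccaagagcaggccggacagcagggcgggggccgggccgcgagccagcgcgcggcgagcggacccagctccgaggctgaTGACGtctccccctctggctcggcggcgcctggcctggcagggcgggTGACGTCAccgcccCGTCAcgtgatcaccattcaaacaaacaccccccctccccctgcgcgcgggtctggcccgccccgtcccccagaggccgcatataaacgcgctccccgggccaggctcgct
DUSP8, chr11:1572272-1572521, minus strand: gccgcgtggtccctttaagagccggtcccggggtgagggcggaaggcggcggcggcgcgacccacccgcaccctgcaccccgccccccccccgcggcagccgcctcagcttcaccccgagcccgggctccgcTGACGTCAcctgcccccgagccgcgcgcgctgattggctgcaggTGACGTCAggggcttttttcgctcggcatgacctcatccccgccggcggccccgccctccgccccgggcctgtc
The DUSP6 window had a GC content of 57.2%, the DUSP1 window 74.4% and the DUSP8 window 76.8%, beside a median of 58.0% over all windows.

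The other genes of the MAP kinase cascades were given by 7 lists of 57 genes, of which 53 were tested. At 12 h 15 of the 53 passed on the edgeR adjusted p-value, 9 higher and 6 lower, and 4 of them also passed 1.5-fold. At 24 h these numbers were 14 (9 higher, 5 lower) and 3. These shares of 28.3% and 26.4% stood beside the 18.7% and 21.1% of all genes. Between 12 and 24 h 2 of the 53 passed (1 higher and 1 lower), a share of 3.77%. The remaining 2 catalytically active MAP kinase phosphatases, DUSP2 and DUSP9, were both higher. DUSP2 (PAC-1), a nuclear inducible phosphatase, rose from 7.81 ± 0.560 CPM to 12.98 ± 0.606 by 12 h and 13.4 ± 0.922 by 24 h (SD, n = 3), with log2 fold changes of 0.73 and 0.78 (edgeR adjusted p-values 5.49e-09 and 9.45e-10). DUSP9 (MKP-4), a cytoplasmic phosphatase that prefers ERK, rose from 9.39 ± 0.496 to 12.2 ± 0.230 and 12.1 ± 0.557 CPM, by 0.37 on the log2 scale at both times (edgeR adjusted p-values 0.000274 and 0.000247). DUSP9 stayed under 1.5-fold and is named after its values were seen. Of the 11 atypical dual-specificity phosphatases tested, which lack the kinase interaction motif, 2 were higher and 0 lower by the adjusted p-value at both times, and their changes ran from -0.14 to 0.41 at 12 h.

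Against the direction of these ERK phosphatases, the tyrosine phosphatase PTPRR fell. PTPRR carries a kinase interaction motif and dephosphorylates ERK, and it went from 8.58 ± 0.189 CPM to 4.53 ± 0.894 by 12 h and 4.602 ± 0.443 by 24 h (SD, n = 3). Its log2 fold changes were -0.92 and -0.90 (edgeR adjusted p-values 5.64e-08 and 6.2e-08). Of the 2 other genes of its list, 1 was tested and did not pass at either time.

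The kinases of the ERK cascade stayed within a narrow range. Of 9 kinases and scaffolds from RAF to ERK, 0 passed both thresholds at either time, 1 was lower by the edgeR adjusted p-value at 12 h and 0 at 24 h, and the changes ran from -0.22 to 0.25 at 12 h and from -0.075 to 0.12 at 24 h. On the stress kinase side 2 genes fell past both thresholds. MAP2K6, a kinase that activates p38, went from 24.3 ± 1.14 CPM to 14.5 ± 0.758 by 12 h and 11.7 ± 1.09 by 24 h (SD, n = 3), with log2 fold changes of -0.74 and -1.05 (edgeR adjusted p-values 6.14e-11 and 7.17e-15). Its value at 24 h was lower than at 12 h by -0.31 (adjusted p-value 0.00439), a call that was lost without 24 h replicate 3 (-0.25, adjusted p-value 0.0521). MAPK10, the JNK isoform best known from neurons, went from 2.08 ± 0.329 to 1.04 ± 0.114 CPM at 12 h (log2 fold change -0.99, edgeR adjusted p-value 0.00111) and was at 1.54 ± 0.520 CPM at 24 h (-0.44, adjusted p-value 0.15). The difference between its values at the 2 times was 0.55 (edgeR adjusted p-value 0.171), and leaving out 24 h replicate 2 gave 0.81, which passed (0.026). In the p38 list 2 of 8 genes were higher and 1 lower by the adjusted p-value at both times. In the JNK list 1 of 8 was higher and 2 lower at each time, but these were not all the same genes at 12 and 24 h. Of 13 PP2A and PP2C phosphatase genes, 2 were higher and 1 lower at both times and 0 passed 1.5-fold, with changes from -0.13 to 0.49 at 12 h.

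**Figure D4:**
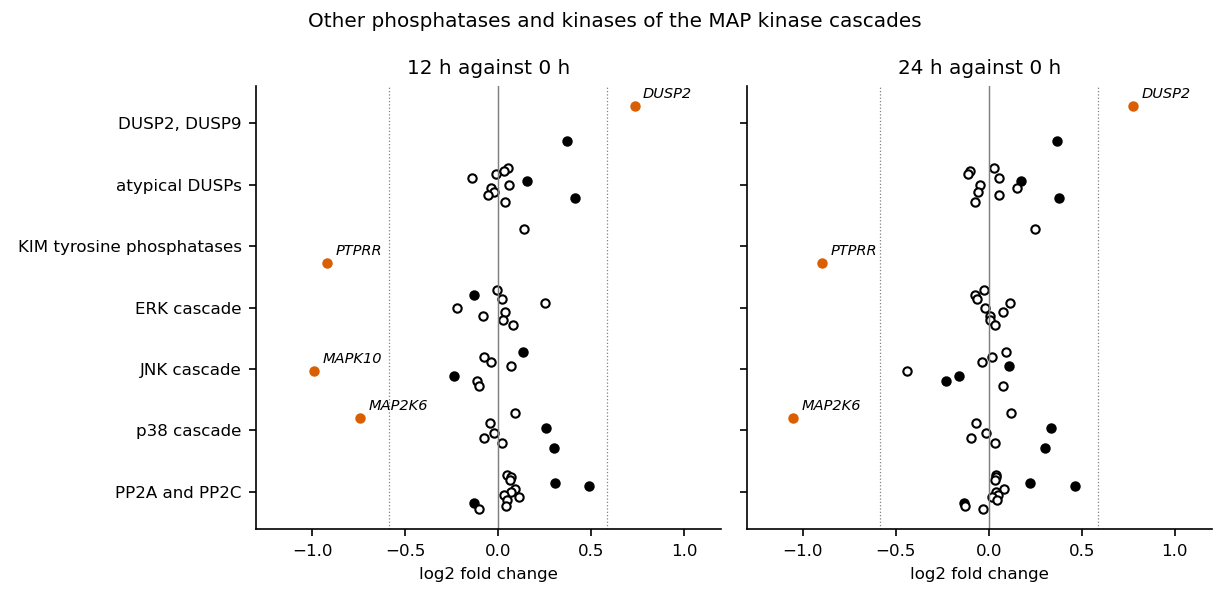
Log2 fold change at 12 h (left) and 24 h (right) against 0 h for the 53 tested genes of 7 lists of phosphatases and kinases of the MAP kinase cascades, 1 point per gene. Filled points passed on the edgeR adjusted p-value, orange points also pass 1.5-fold (dotted lines) and are named. DUSP2 is the 1 gene past 1.5-fold upward, and PTPRR and MAP2K6 lie past it downward at both times.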

How the data were processed

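RNA was sequenced from LNCaP cells at 0, 12 and 24 h of NRG1. Per the study's methods, the authors trimmed paired reads of mRNA libraries with Cutadapt, aligned them to GRCh38.p13 with STAR and counted reads per gene with featureCounts, and they deposited whole-number read counts without normalization and without pooling. The strand setting was not stated. The methods mention 1 LNCaP replicate at time 0 left out for quality without naming its treatment. The study's legends give 3 replicates for the NRG1 time course and a varying number for ASPN, which points to the ASPN experiment, and all 3 of the 0 h libraries here were used. The table has 14 further columns beside the gene annotation and the counts of the 9 libraries, and these were not used. With 47016302 to 60985825 counts a library and no molecular identifiers, precision from depth covers counting error only.

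Groups came from the sample titles. Genes were kept with filterByExpr, scaled by TMM (trimmed mean of M values) and tested in edgeR 4.0.16 (R 4.3.3) by the quasi-likelihood method with robust dispersions, fitted to the 9 libraries together. Confidence intervals come from the F statistic. Alternatives were DESeq2 1.42.0, other scalings, filters, thresholds and subsets of libraries, and the replicate number as a block. Exon lengths and strands came from GENCODE 44, in which all 8 genes have the same GRCh38 coordinates as in the table, and near copies were sought with BLAST 2.17.0 (95% identity over 150 bases), which found only the antisense gene of DUSP6. The methods were tested on simulated data with genes changed at 12 h. Of 67 genes changed 1.5-fold, 61 passed on the edgeR adjusted p-value and 30 passed both thresholds. Of 67 genes changed 2-fold, 66 passed both. A gene changed by just 1.5-fold can be estimated on either side of that threshold, so true changes close to it are often missed by construction. The simulated counts used the dispersions fitted to these data. Members, classes and lists were chosen with earlier results of these data known. Named genes are the 8 members, listed genes past both thresholds, the 3 nearest patterns of each induced member and genes that overlap a member. Outside this rule, DUSP9 and the marker genes COL1A1, COL1A2, ASPN, PECAM1 and VWF were named after their values were seen.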

Additional observations from a re-analysis of the deposited data

Results flagged for a closer look

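The size of the change from 0 h was not the same at both times, by the direct edgeR test between them, for 2 of the 8 members and for MAP2K6 (adjusted p-values of 0.00268, 0.0252 and 0.00439). DUSP6 was higher at 24 h by a log2 fold change of 0.42, and all 3 libraries at 24 h lay above all 3 at 12 h. DUSP5 was higher by 0.28, also without overlap, and its call was lost in 4 of the fits without 1 library, as given above. MAP2K6 was lower by -0.31 at 24 h. Time in the medium and NRG1 cannot be told apart for these differences.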

How the results depend on the processing

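The counts of members past both thresholds were 3 at 12 h, 3 at 24 h and 0 between the times, also with DESeq2, with size factors by median of ratios, unscaled, with other filters, only the 6 libraries compared and each library left out. Without the fold threshold they were 6 at 12 h, 3 at 24 h and 2 between the times. With a fold change of at least 2 they were 2, 2 and 0, for which the share of all tested genes was not computed. The class medians moved by less than the spread between replicates in all these fits. DUSP16 also passed without a scaling factor at 12 h (log2 fold change -0.096, edgeR adjusted p-value 0.0289) and with at least 10 counts in every library (-0.091 at 12 h and -0.090 at 24 h). Its change between 12 and 24 h turned sign with DESeq2 (-2.84e-05) and without the low-count filter (-0.0035) and ran from -0.020 to 0.014 over the fits without 1 library. The 24 h change of DUSP10 ran from -0.070 to 0.010 over those fits. The cause was not tested. Over all alternatives the log2 fold change of DUSP6 was 4.07 to 4.46 at 12 h and 4.50 to 4.88 at 24 h.

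Same-numbered libraries did not deviate together (correlations of -0.065 to 0.064 over 9 pairs, 4 of 9 libraries closest to their own number), so the numbers were not taken as pairs. With the replicate number as a block the counts were 3, 3 and 0, and no member changed its call (DUSP5 between the times, adjusted p-value 0.0277). Depth limits DUSP6 at 0 h, with 20 to 35 reads a library.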
